A study of Mus musculus with 18 samples.

Results

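Sephs2, the gene for selenophosphate synthetase 2, was followed through mouse liver by its mRNA, by the ribosomes ahead of its selenocysteine codon and by the ribosomes behind it. It was taken by its symbol and is 1 of the 23 selenoprotein genes measured, with a value in each of the 18 libraries. Ribosome footprints and polyA RNA were sequenced from frozen whole livers of male mice aged 5 to 8 weeks, with 9 libraries for each assay. The 4 genotype groups were Secisbp2 wild type (2 libraries per assay), Secisbp2 knockout (Alb-Cre; Secisbp2fl/fl, 2 libraries), Trsp wild type (3 libraries) and Trsp knockout (Alb-Cre; Trspfl/fl, 2 libraries). The wild type groups were male littermates with wild type alleles, and the sources used here do not say whether they carried Cre. Cre under the albumin promoter deletes in hepatocytes, so the other cells of the liver keep both genes. The series set out to follow mRNA abundance, translation initiation and the reading of UGA as selenocysteine.

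The enzyme makes selenophosphate, the selenium donor with which selenocysteine is built on its own transfer RNA. It is itself a selenoprotein, so a full-length copy can be made only where a UGA codon in its mRNA is read as selenocysteine in place of a stop. That reading needs the SECIS element, a hairpin in the 3' untranslated region, the protein SECISBP2 that binds it, and the selenocysteine transfer RNA encoded by Trsp. A ribosome that stops at the UGA leaves footprints ahead of the codon and none behind it, so the 3' density over the 5' density of the same library follows the share of ribosomes that go past. Some mRNAs with a UGA that is read as a premature stop can also be degraded by nonsense-mediated decay. Whether Sephs2 mRNA is degraded in this way was not tested.

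Levels are given as RPKM, reads scaled by the length of the region and by the mapped reads of the library, so they can be compared between regions and genes. The read numbers behind them could be recovered exactly, which also gave the length of each region. The Sephs2 region 5' of the UGA came to 156 nt, or 52 codons, the region 3' of it to 1154 nt, the longest 3' region among the 15 genes that had one with reads, and the mRNA to 2206 nt. The libraries held 5065579 to 20645294 mapped reads for footprints and 6522357 to 36510084 for RNA. Sephs2 itself had 95 to 425 footprint reads 5' of the UGA, 21 to 1530 behind it and 2841 to 22341 RNA reads. None of the 10 other genes of the selenocysteine machinery that were looked for, Secisbp2 and Trsp among them, and none of 17 liver cell type markers was in the tables, so the deletion and the cell makeup were not analysed here. In whole liver, fewer cells of a type and less RNA per cell cannot be told apart. The library codes fell into 3 sets, with Secisbp2 wild type in a set of its own, Secisbp2 knockout in another and both Trsp groups in the last, so a difference between the Secisbp2 groups and one between their library sets cannot be told apart. The same holds for every comparison between a Secisbp2 group and a Trsp group.

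Sephs2 mRNA was lower in both knockouts than in their own wild types. In Secisbp2 wild type livers it was at 197 and 183 RPKM, and in Secisbp2 knockout livers at 73.4 and 42.7 RPKM. In Trsp wild type livers it was at 467, 439 and 443 RPKM, and in Trsp knockout livers at 265 and 219 RPKM. No knockout library overlapped with its own wild type, but both Trsp knockout libraries were above both Secisbp2 wild type libraries.

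The group means of the mRNA were 190.0 ± 10.5 RPKM (SD, n = 2) in Secisbp2 wild type and 58.1 ± 21.7 RPKM (SD, n = 2) in Secisbp2 knockout, which is 30.6% of the wild type level. On the log2(RPKM + 0.5) scale the mRNA fell by 1.75 (SE 0.222, limma adjusted p = 0.000104) with the loss of Secisbp2. A change was called for 70.0% of the 20 mRNAs tested, 4 higher and 10 lower, and the median over all 20 was -0.39. In the Trsp livers the means were 449.8 ± 15.1 RPKM (SD, n = 3) and 242 ± 32.1 RPKM (SD, n = 2), or 53.8% of wild type. That is a fall of 0.90 (SE 0.203, limma adjusted p = 0.00280), where 75.0% of the mRNAs were called, 1 higher and 14 lower, with a median of -0.66. Counted from the most lowered, Sephs2 stood at 4 of 20 without Secisbp2 and at 9 of 20 without Trsp.

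The Trsp mRNA result depended on the scaling and on which livers it was set against. With each library left out in turn the change ran from -1.03 to -0.76. With each sample scaled to the median ratio of the selenoproteins, the Trsp change was -0.34 (limma adjusted p = 0.240), and with the 2 wild type groups pooled it was -0.40 (adjusted p = 0.521). Against the Secisbp2 wild type livers in place of its own littermates it was 0.34 (adjusted p = 0.226), and over all its alternatives the adjusted p ran from 5.19e-09 to 0.521. The Secisbp2 change was called in each of these settings, at -1.25 scaled, -2.50 pooled and -2.99 against the other wild type. Such scaling takes out a change that most of these genes share. It took the median of all 20 mRNA changes from -0.39 to 0.04 in the Secisbp2 comparison and from -0.66 to -0.11 in the Trsp comparison. The calls then split into 6 higher and 8 lower without Secisbp2 and 4 higher and 7 lower without Trsp.

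Ribosomes on the stretch ahead of the UGA followed the same order of groups. The 5' density was 157 and 199.8 RPKM in Secisbp2 wild type livers and 52.5 and 29.5 RPKM in Secisbp2 knockout livers. It was 318, 277 and 326 RPKM in Trsp wild type livers and 220.4 and 140.0 RPKM in Trsp knockout livers. Both knockouts lay below all of their own wild type libraries, and the Trsp knockout libraries spanned the Secisbp2 wild type ones.

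The mean 5' density in Secisbp2 knockout livers, 41.0 ± 16.3 RPKM (SD, n = 2), was 23.0% of the wild type mean of 179 ± 30.0 RPKM (SD, n = 2). It fell by 2.16 (SE 0.339, limma adjusted p = 0.00180) on the log2 scale, where 45.0% of 20 genes were called, all 9 of them lower. Scaled to the median ratio, the same comparison had 8 genes higher and 5 lower, and Sephs2 was still called lower at -1.48. In Trsp knockout livers the mean of 180.2 ± 56.8 RPKM (SD, n = 2) was 58.7% of the wild type mean of 307 ± 26.4 RPKM (SD, n = 3). That difference of -0.80 (SE 0.310, 95% interval -1.52 to -0.08) did not pass adjustment over the 20 genes (limma adjusted p = 0.0521, unadjusted 0.0338), while 60.0% of the genes were called, 1 higher and 11 lower, or 3 higher and 4 lower when scaled. Over its alternatives it ran from -1.13 to -0.01, with adjusted p from 0.0256 to 0.969, and the value near 0 is that against the Secisbp2 wild type livers. It was called without Secisbp2 knockout replicate 1 or replicate 2 (adjusted p = 0.0335 in each case) and without Trsp knockout replicate 1 (-1.13, adjusted p = 0.0451).

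The 5' density per mRNA, a measure of how heavily each mRNA was loaded with ribosomes that had started, differed less between knockout and wild type than either of its parts. It was 0.797 and 1.09 in Secisbp2 wild type livers and 0.716 and 0.691 in Secisbp2 knockout livers. In the Trsp livers it was 0.680, 0.631 and 0.736 in wild type and 0.832 and 0.638 in knockout. The Secisbp2 groups did not overlap and the Trsp groups did. The changes were -0.40 (SE 0.424, 95% interval -1.32 to 0.51, limma adjusted p = 0.651) without Secisbp2 and 0.10 (SE 0.387, 95% interval -0.74 to 0.94, limma adjusted p = 0.864) without Trsp, with 5.00% and 10% of 20 genes called. Neither passed the test, and the intervals do not show that loading stayed the same. Leaving out Trsp knockout replicate 1 turned the Trsp value to -0.09 (adjusted p = 0.924, with a range over its alternatives of 0.620 to 0.981).

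**Figure D1:**
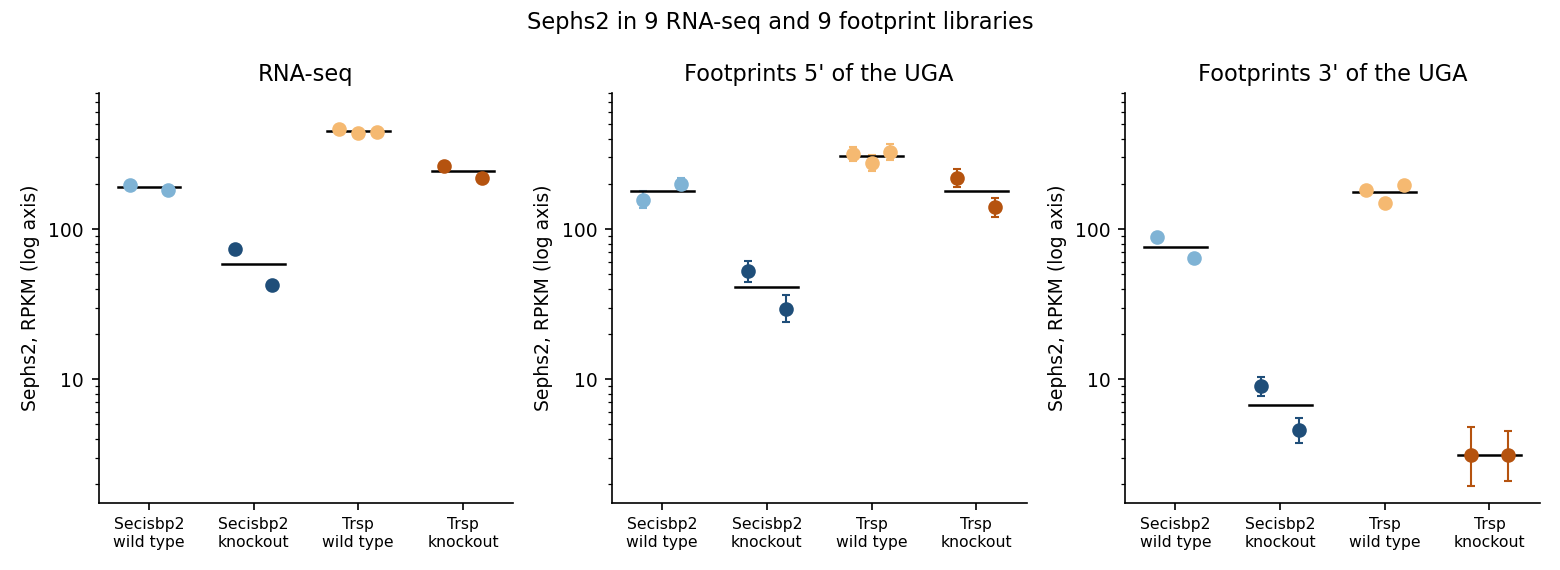
Sephs2 mRNA, 5' footprint density and 3' footprint density in each library, in RPKM on a log axis. Points are libraries coloured by group, vertical bars are 95% counting intervals from the recovered reads and horizontal lines are group means; the Trsp knockout libraries lie at 3.11 and 3.12 RPKM in the 3' panel while their mRNA stays at 265 and 219 RPKM.

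Behind the UGA the density dropped further, and here Trsp knockout livers were the lowest. The 3' density was 88.8 and 63.7 RPKM in Secisbp2 wild type livers and 8.96 and 4.58 RPKM in Secisbp2 knockout livers. It was 183, 149 and 198 RPKM in Trsp wild type livers and 3.11 and 3.12 RPKM in Trsp knockout livers. Each knockout library was below every wild type library of either background, and both Trsp knockout libraries were below both Secisbp2 knockout libraries.

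The Trsp knockout values rest on 21 and 29 reads, with exact 95% counting intervals of 1.93 to 4.76 and 2.09 to 4.48 RPKM. The Secisbp2 knockout values rest on 203 and 109 reads, with intervals of 7.77 to 10.3 and 3.76 to 5.52 RPKM. The lower Secisbp2 knockout library therefore overlapped with the Trsp knockout libraries within counting error, and the higher one did not. Reads carry no molecular identifiers, so these intervals cover counting error only.

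Without Secisbp2 the 3' density averaged 6.77 ± 3.10 RPKM (SD, n = 2) against 76.3 ± 17.7 RPKM (SD, n = 2), or 8.87% of wild type. The log2 change was -3.45 (SE 0.373, limma adjusted p = 2.08e-05), the lowest of the 12 genes tested, of which 75.0% were called. Without Trsp it averaged 3.12 ± 0.00460 RPKM (SD, n = 2) against 177 ± 24.9 RPKM (SD, n = 3), or 1.76% of wild type. The log2 change was -5.61 (SE 0.341, limma adjusted p = 1.07e-07), again the lowest of the 12, of which 83.3% were called. The medians over all 12 genes were -2.29 and -3.18. All calls in both comparisons were falls (scaled, 1 gene was called higher without Trsp), and both Sephs2 calls held in every alternative that was run, from -4.67 to -2.79 and from -5.77 to -4.39.

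The 3'/5' ratio, which takes mRNA level and loading out, separated the 2 knockouts most. It was 0.564 and 0.319 in Secisbp2 wild type livers, with 95% counting intervals of 0.491 to 0.650 and 0.285 to 0.358. It was 0.170 and 0.155 in Secisbp2 knockout livers, with intervals of 0.138 to 0.211 and 0.117 to 0.206. The wild type libraries differed from each other beyond counting error, the knockout libraries did not, and the groups did not overlap.

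In Trsp wild type livers the ratio was 0.576, 0.540 and 0.607. In Trsp knockout livers it was 0.0141 and 0.0223, with intervals of 0.00855 to 0.0222 and 0.0145 to 0.0331. The Trsp knockout libraries were far below all 7 others. In reads, 80.0% to 81.8% of the Sephs2 footprints in Trsp wild type lay behind the UGA, against 9.46% and 14.1% in Trsp knockout. In the Secisbp2 background these shares were 80.7% and 70.2% in wild type and 55.8% and 53.4% in knockout. The shares are not corrected for length, with 1154 nt behind the UGA and 156 nt ahead of it. They are therefore not shares of ribosomes that go past.

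The mean ratio fell from 0.574 ± 0.0336 (SD, n = 3) to 0.0182 ± 0.00576 (SD, n = 2) without Trsp, which is 3.17% of wild type. The log2 change of -4.81 (SE 0.337, limma adjusted p = 2.70e-05) was the lowest of 12 genes, of which 75.0% were called. Without Secisbp2 the mean went from 0.442 ± 0.173 (SD, n = 2) to 0.163 ± 0.0108 (SD, n = 2), or 36.9% of wild type. That log2 change was -1.29 (SE 0.369, limma adjusted p = 0.0476), 1 of 3 falls that were called among 12 genes (25.0%). The median over all 12 was -0.65.

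The Secisbp2 ratio call is narrow. It was lost without any of 8 of the 9 libraries, with -0.89 (adjusted p = 0.223) without Secisbp2 wild type replicate 1. The adjusted p was 0.138 without Secisbp2 knockout replicate 1 and 0.135 without replicate 2. It was 0.0820, 0.0508 and 0.0746 without Trsp wild type replicates 1, 2 and 3, and 0.0516 without either Trsp knockout replicate. It held when replicate 2 of the Secisbp2 wild type was left out (adjusted p = 0.0328), against the pooled wild types (-1.55, adjusted p = 0.0154) and against Trsp wild type (-1.73, adjusted p = 0.00571). Over all 18 alternatives the change ran from -1.73 to -0.89 and the adjusted p from 0.00571 to 0.223. Where a library was left out of a group of 2, the remaining one was assumed to vary like the other groups.

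**Figure D2:**
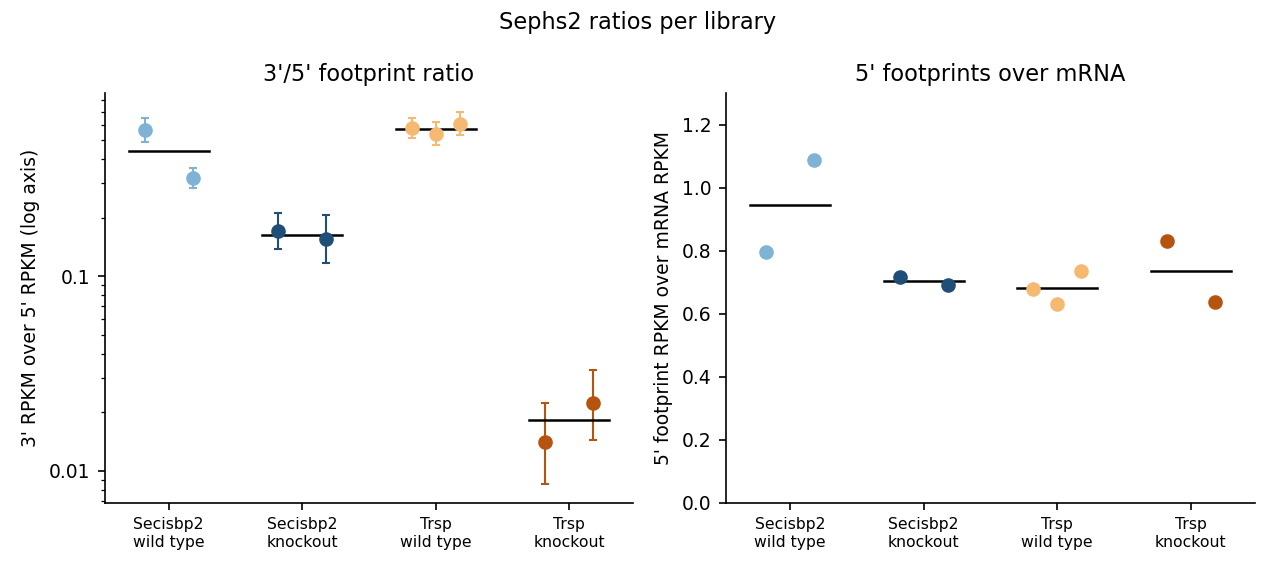
Sephs2 3'/5' footprint ratio (left, log axis, no unit) and 5' footprint density over mRNA (right, linear axis from 0, no unit) in each library. Points are libraries, vertical bars on the left are 95% counting intervals and horizontal lines are group means; the ratio is 0.0141 and 0.0223 in Trsp knockout and 0.540 to 0.607 in Trsp wild type, while the groups on the right lie between 0.631 and 1.09.

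The fall of the 3' density can be written as the sum of the changes in mRNA, in loading per mRNA and in passage of the UGA, computed from mean log2 values without a pseudocount. Without Secisbp2 the total of -3.56 was made of -1.76 in mRNA, -0.41 in loading and -1.38 in the 3'/5' ratio, which is 49.6%, 11.5% and 38.9% of it. Without Trsp the total of -5.82 was made of -0.90, 0.10 and -5.02, so that the ratio held 86.2% and the mRNA 15.5%. The ratio was the largest term in Trsp knockout livers whichever library was left out, at -5.34 to -4.69. In Secisbp2 knockout livers the mRNA term stayed the larger whichever Secisbp2 library was left out, but its lead over the ratio was not firm. The terms came to -1.82 and -1.79 without wild type replicate 2 and to -1.37 and -1.32 without knockout replicate 2. They came to -1.71 and -0.97 without wild type replicate 1 and to -2.15 and -1.45 without knockout replicate 1. These shares carry no test.

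**Figure D3:**
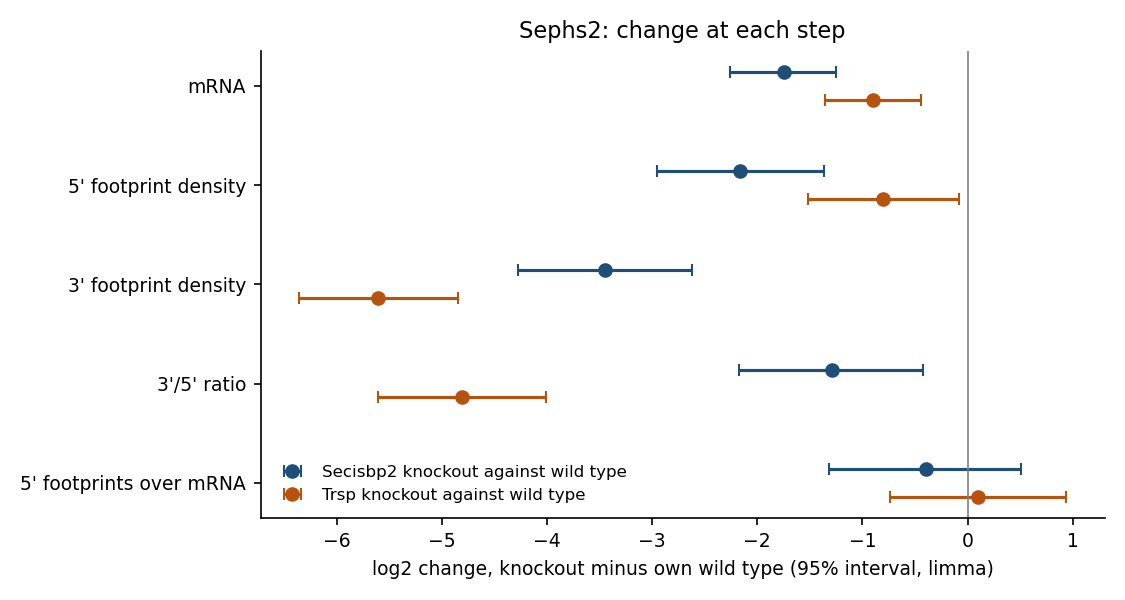
Sephs2 log2 change in each knockout against its own wild type for mRNA, 5' density, 3' density, 3'/5' ratio and 5' over mRNA, from limma on log2(RPKM + 0.5). Points are estimates and bars are 95% intervals; the ratio is at -4.81 for Trsp and -1.29 for Secisbp2, and mRNA is at -0.90 and -1.75.

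The difference between the knockout effects was tested directly, as the Secisbp2 effect minus the Trsp effect. The Secisbp2 groups lay in separate library sets and the Trsp groups in a shared one. Genotype and library set therefore cannot be told apart in this difference. The mRNA and 5' density were lowered more in Secisbp2 knockout, by -0.85 (SE 0.301, limma adjusted p = 0.0310, 70.0% of 20 genes called) and -1.36 (SE 0.459, limma adjusted p = 0.0351, 55.0% called). The 3' density and the ratio were lowered more in Trsp knockout, by 2.16 (95% interval 1.04 to 3.28, limma adjusted p = 0.00604, 25.0% of 12 genes called) and 3.51 (95% interval 2.33 to 4.70, limma adjusted p = 0.00120, 33.3% called). The ratio difference was the highest of the 12 genes. Loading per mRNA gave -0.50 (95% interval -1.75 to 0.74, limma adjusted p = 0.723), and limma called 0 of 20 genes, with 5 at an unadjusted p under 0.05.

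The last 2 of these held whichever library was left out, from 1.71 to 2.60 for the 3' density and from 3.10 to 3.92 for the ratio. The mRNA difference did not hold without replicate 1 of the Secisbp2 wild type (adjusted p = 0.0655) or without replicate 2 of the Secisbp2 knockout (-0.47, adjusted p = 0.0658). It was also lost with replicate 1, 2 or 3 of the Trsp wild type left out in turn (0.0566, 0.0622 and 0.0668) and without Trsp knockout replicate 1 (0.105). The 5' difference did not hold without replicate 2 of the Secisbp2 wild type (adjusted p = 0.121) or replicate 2 of the Secisbp2 knockout (0.117). It was also lost with replicate 1 or 2 of the Trsp wild type left out in turn (0.0634 and 0.0635) and without Trsp knockout replicate 1 (0.141). Over all alternatives the adjusted p ran from 0.000725 to 0.105 for the mRNA and from 0.0134 to 0.141 for the 5' density.

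An exact permutation test of Sephs2 alone, with genotype reassigned within each background and the 2 knockouts averaged, allows 60 arrangements and no p below 0.0167. The mean changes of -1.33 in mRNA, -1.48 in 5' density, -4.53 in 3' density and -3.05 in the ratio each reached that smallest two-sided p of 0.0167, or 0.0208 adjusted over the 5 measures. In each of these 4 measures all 4 knockout libraries were below every wild type library of their own background. Loading per mRNA gave -0.15 (exact permutation p = 0.467). With a library left out, each of the 4 measures again reached the smallest p its design allows. Adjusted, this was 0.0417 without any 1 of the Secisbp2 libraries, 0.0521 without Trsp knockout replicate 1 or replicate 2 and 0.0694 without Trsp wild type replicate 1, 2 or 3, so the designs without a Trsp library cannot pass.

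The 2 wild type groups differed from each other. They were in different library sets, so a difference between backgrounds and one between library sets cannot be told apart here. Sephs2 mRNA was 2.37-fold higher in Trsp wild type than in Secisbp2 wild type, at 1.24 (SE 0.203, limma adjusted p = 0.000686), the highest of the 20 genes, of which 45.0% were called. The 3' density was 2.32-fold higher, at 1.22 (SE 0.341, limma adjusted p = 0.0286, 25.0% of 12 genes called). That call was lost without replicate 1 or replicate 2 of the Secisbp2 wild type (adjusted p = 0.0540 and 0.193) and without Trsp wild type replicate 3 (0.0825), in a range of 0.00102 to 0.193. The 5' density was 1.72-fold higher, at 0.79 (SE 0.310), which did not pass (limma adjusted p = 0.0804, 15.0% of 20 genes called). The ratio, at 0.43 (95% interval -0.37 to 1.23, limma adjusted p = 0.414, 8.33% of 12 genes called), and loading, at -0.46 (limma adjusted p = 0.580, 10% of 20 genes called), did not pass either.

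Set in order, the mean mRNA ran from Trsp wild type through Trsp knockout and Secisbp2 wild type to Secisbp2 knockout, with no overlap between neighbours. The 5' density had the same ends, but Trsp knockout and Secisbp2 wild type overlapped, with the Trsp knockout mean at 101% of the other. The 3' density ran from Trsp wild type through Secisbp2 wild type and Secisbp2 knockout to Trsp knockout. Trsp knockout livers thus held 1.27-fold the mRNA of Secisbp2 wild type livers and 4.09% of their 3' density. The ratio had that same order, in which the wild type groups overlapped, and was 8.94-fold higher in Secisbp2 knockout than in Trsp knockout.

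Replicates of Secisbp2 knockout differed in level, while their ratios overlapped within counting error. Replicate 1 was above replicate 2 by 1.72-fold in mRNA, 1.78-fold in 5' density and 1.96-fold in 3' density. The other genes differed between the same 2 libraries by a median log2 of 0.03 in mRNA, 0.07 in 5' density and 0.49 in 3' density. Of these genes, 11 of 19, 14 of 19 and 9 of 11 differed in the same direction as Sephs2. Trsp knockout replicates differed too, with replicate 1 above replicate 2 by 1.21-fold in mRNA and 1.57-fold in 5' density. The other genes had median log2 differences of 0.02 and -0.16 there. The Sephs2 3' densities of these replicates were alike, at 3.11 and 3.12 RPKM.

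Among the selenoproteins Sephs2 was an abundant liver transcript per unit of length. Its mRNA ranked 3 of 23 in Trsp wild type and 5 of 23 in each other group, at a mean of 259 RPKM over all libraries. Msrb1, a methionine sulfoxide reductase, was just above it at 320.0 RPKM, and Selenof, a protein of the endoplasmic reticulum, just below it at 104 RPKM. The 5' density of Sephs2 ranked 5 of 21 in Secisbp2 wild type and 11 of 21 in Secisbp2 knockout, against 5 of 20 in Trsp wild type and 4 of 21 in Trsp knockout. Its rank was thus lower in Secisbp2 knockout livers than in the 3 other groups.

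The ratio placed Sephs2 in the middle of the wild type genes and at the bottom without Trsp. With 0.5 RPKM added to both densities, it ranked 7 of 12 in both wild type groups, 9 of 12 in Secisbp2 knockout and 12 of 12 in Trsp knockout. In Trsp knockout the ratio was 0.0211 for Sephs2 and 0.0262 for Gpx4, the gene just above, so that last rank is not firm. On that scale Trsp knockout kept 3.66% of the wild type ratio, below the next genes, Gpx4 at 11.0% and Msrb1 at 11.7%. The Msrb1 3' window held 50 nt, with 3' densities of 4.97 and 20.5 RPKM in Trsp knockout, so its value rests on few reads. Gpx4 encodes the glutathione peroxidase that reduces lipid hydroperoxides. Without Secisbp2, Sephs2 kept 39.2% of the wild type ratio, within a span from 23.9% in Msrb1 to 186% in Dio1. The added 0.5 RPKM raises the Dio1 ratio in Secisbp2 knockout, where its 3' density averaged 1.84 RPKM.

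**Figure D4:**
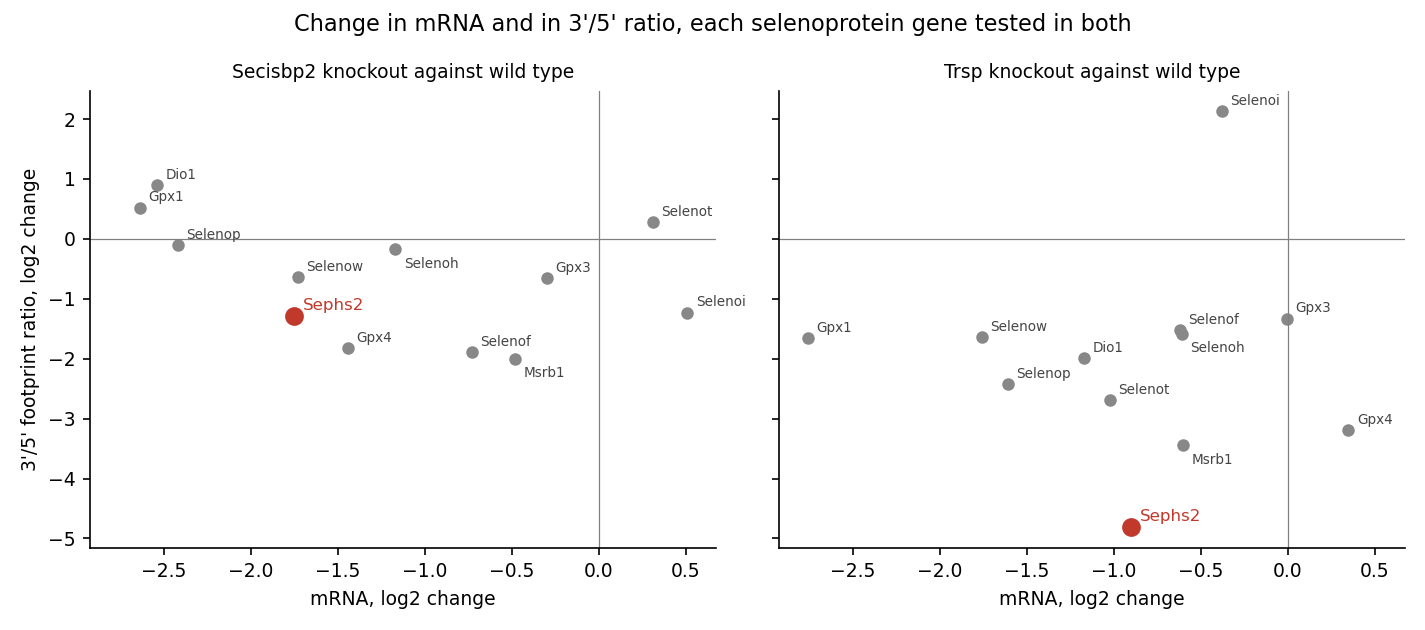
Log2 change of the 3'/5' ratio (vertical axis) against log2 change of the mRNA (horizontal axis) for the 12 genes with both, in Secisbp2 knockout (left) and Trsp knockout (right). Each point is a gene and Sephs2 is coloured; it lies at -1.75 and -1.29 on the left and at -0.90 and -4.81 on the right, the lowest point of that panel.

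The gene whose mRNA was most like that of Sephs2 over the 9 libraries was Dio1, the deiodinase that activates thyroid hormone in liver. Likeness was the root mean square log2 difference after centring each gene on its own mean, and it was 0.304 for Dio1, against a median of 1.06 over 19 genes. Selenof (0.571) and Selenop (0.594), the secreted selenium carrier made by liver, came next. Dio1 mRNA averaged 50.0 RPKM in wild type and 8.39 RPKM in knockout livers of the Secisbp2 background and 97.2 and 42.9 RPKM in those of the Trsp background, with changes of -2.54 (limma adjusted p = 2.26e-05) and -1.17 (limma adjusted p = 0.00124). All genes share the same libraries, so likeness is a description without a test.

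The likeness to Dio1 did not extend to the ratio. The Dio1 ratio changed by 0.90 without Secisbp2, which did not pass (limma adjusted p = 0.0597), where that of Sephs2 fell by 1.29. Part of that Dio1 rise comes from the 0.5 RPKM added to its low 3' density. Without Trsp the Dio1 ratio changed by -1.99 (limma adjusted p = 0.000548), against -4.81 for Sephs2. In the 5' density the nearest genes were Selenop (0.447), Dio1 (0.496) and Selenof (0.593), with a median of 1.25 over 19 genes. In the 3' density they were Gpx1 (0.731), the abundant cytosolic glutathione peroxidase, Selenop (0.882) and Msrb1 (0.995), with a median of 1.12 over 11 genes. Gpx1 had a 3' change of -2.94 (limma adjusted p = 5.53e-05) and -5.43 (limma adjusted p = 1.36e-07), close to that of Sephs2 in the Trsp comparison.

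**Figure D5:**
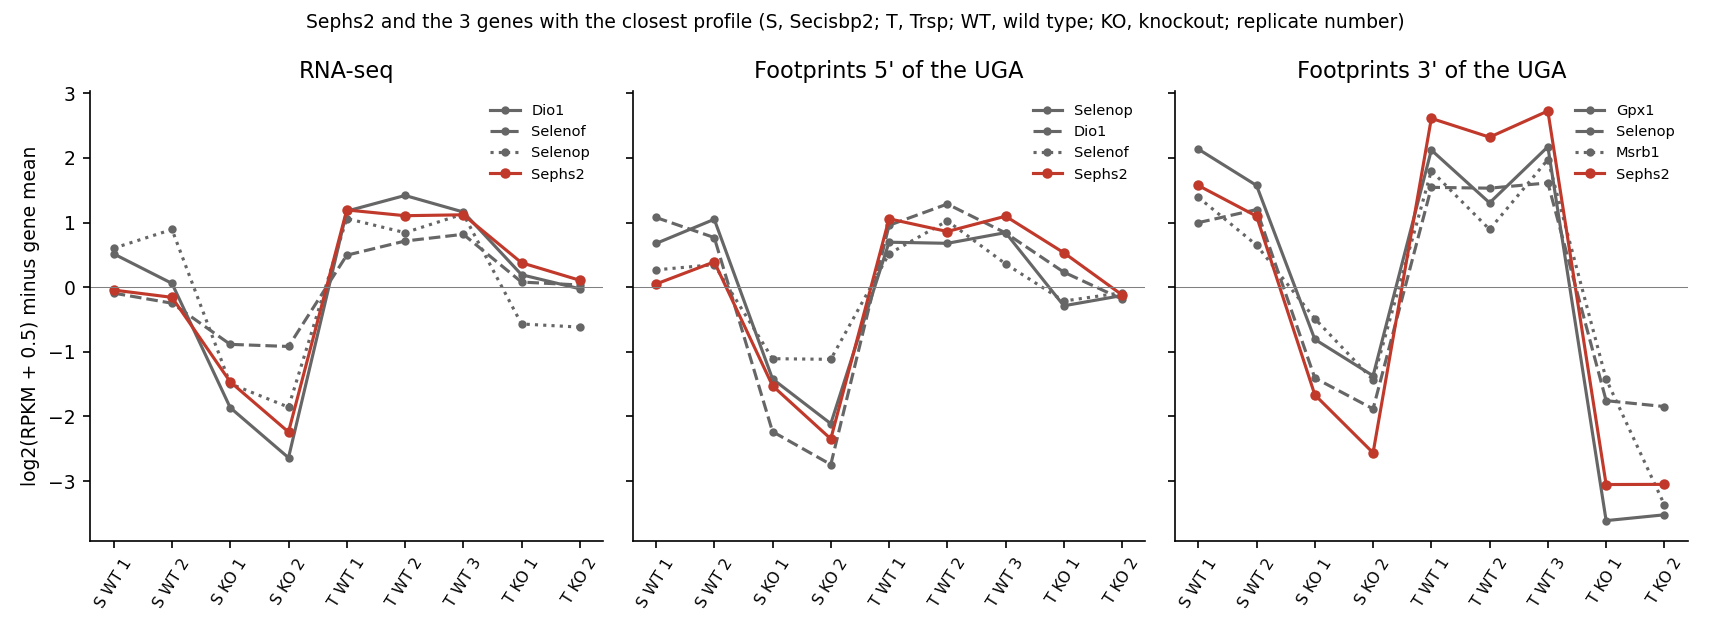
Log2 levels of Sephs2 and of the 3 genes most like it in each table, centred on each gene's mean over the 9 libraries. The horizontal axis gives the libraries by group, and lines join the libraries of a gene only to guide the eye; Dio1 mRNA, at a root mean square difference of 0.304, runs closest to Sephs2.

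The mRNAs of Gpx1, Selenow, Selenoh and Msrb1 are known to track selenium status, and all 4 fell in both knockouts, with median changes of -1.45 without Secisbp2 and -1.18 without Trsp, where 70.0% and 75.0% of all mRNAs were called and the medians over all genes were -0.39 and -0.66. Scaled to the median ratio, 3 of the 4 and 2 of the 4 were called lower. Their 3' density also fell in 4 of 4 in both comparisons, with medians of -2.03 and -3.69, beside 75.0% and 83.3% of all genes called, and in none of the 4 was the change as low as in Sephs2. Their ratio passed the test as lower in 0 of 4 without Secisbp2, where Msrb1 was at -2.00 (limma adjusted p = 0.119), and in 2 of 4 without Trsp, beside 25.0% and 75.0% of all genes called. The medians were -0.40 and -1.65. The 2 called without Trsp were Selenow, with a 5' window of 6 nt, and Msrb1, with a 3' window of 50 nt. Both rest on few reads in those windows in Trsp knockout. Selenop, the only gene of selenium storage and delivery in the tables, had mRNA changes of -2.42 (limma adjusted p = 1.78e-06) and -1.61 (limma adjusted p = 1.09e-05). Its ratio changed by -0.11 without Secisbp2, which did not pass (limma adjusted p = 0.726), and fell by 2.42 without Trsp (limma adjusted p = 0.000109).

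A list of genes with a UGA early in the coding region held 8 measured genes besides Sephs2. It leaves out Selenop, whose 5' window of 48 codons is also short. Of these 8 mRNAs, 1 was called higher and 4 lower in each knockout, beside 14 of 20 and 15 of 20 called over all genes. In this list 6 genes had a 3' window that could be tested. Their ratio was called lower in 1 of 6 without Secisbp2, which was Gpx4 at -1.82 (limma adjusted p = 0.0241). Without Trsp it was called lower in 4 of 6, Gpx3, Gpx4, Selenot and Selenow. The medians were -0.40 and -1.65, beside 25.0% and 75.0% of all 12 genes called. The Selenow 5' window held only 6 nt, and Gpx3 averaged 1.15 RPKM 5' of the UGA in Trsp wild type. The Gpx3 and Selenow calls therefore rest on few reads. Of the 7 genes whose UGA lies near the end of the coding region, 1 mRNA was called lower and 3 higher without Secisbp2. Without Trsp 5 were called lower, again beside 14 of 20 and 15 of 20. Only 1 of these 7, Selenoi, could be tested behind the UGA. Over all other selenoproteins the ratio was called lower in 2 of 11 without Secisbp2 and in 8 of 11 without Trsp. The medians over these 11 were -0.64 and -1.66.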

How the data were processed

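Footprint and polyA RNA libraries came from about 100 mg of RNase I digested liver collected through 50% sucrose, or from total liver RNA, with fragments of 20 to 40 nt sequenced for 50 cycles, per the labels' protocols. The authors deposited RPKM for 23 selenoproteins in 3 tables: footprints 5' of the UGA, footprints 3' of it and RNA, per the file headers. Alignment used Bowtie 0.12.8 and mm9, per the submitters' processing notes. The sources used here do not say how windows were chosen or how reads matching several genes were treated. Symbols were matched to a RefSeq table of another build, used for names only: 11 matched directly and 12 by synonym.

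Whole reads, window lengths and mapped reads were solved from the RPKM. All 311 footprint and 203 RNA values above 0 came within 0.02 of whole reads. A Selenof cell that held a date was read as 263.871 RPKM.

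Values were tested as log2(RPKM + 0.5), in genes averaging 1 RPKM or more, by a limma 3.58.1 fit (R 4.3.3) over all 4 groups. The added 0.5 understates changes in the level of low genes and can move the change of a ratio either way. Two-sided p-values were adjusted by the Benjamini-Hochberg method over all tested genes, and calls were made at 0.05. The labels state 3 mice per background, and nothing more says whether replicates are separate animals, so p-values measure the spread between these libraries, which may be technical. Loading per mRNA was the interaction of assay and genotype. Exact permutation tests and counting intervals used scipy 1.17.1 (Python 3.11.15). The limma fits of mRNA, 5' density and 3' density in the Secisbp2 comparison, and the permutation test, were run on simulated data. In the limma simulation only a few genes changed, unlike in these data. The ratio and loading fits were not simulated. Alternatives were other pseudocounts, no filter, precision weights, scaling to the median ratio, other wild types, a replicate block, fits of 2 groups and leaving out each library.

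Sephs2 and the gene lists were chosen with earlier results of these data known. Named genes were Sephs2, the 3 nearest by likeness and the neighbours by level in each table, and members of the lists. The late-UGA, early-UGA and selenium lists are from general knowledge.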

Additional observations from a re-analysis of the deposited data

Results flagged for a closer look

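The effect of the knockouts on Sephs2 differed between the Secisbp2 and the Trsp background in 4 measures, by a limma test of the difference itself (Secisbp2 effect minus Trsp effect, on the log2 scale). For the mRNA the difference was -0.85 (adjusted p = 0.0310) and for the 5' density -1.36 (adjusted p = 0.0351), so both were lowered more without Secisbp2. For the 3' density it was 2.16 (adjusted p = 0.00604) and for the 3'/5' ratio 3.51 (adjusted p = 0.00120), so both were lowered more without Trsp. The Secisbp2 groups lay in separate library sets and the Trsp groups in a shared one. Genotype and library set therefore cannot be told apart in these differences. Groups held 2 or 3 libraries, so no test for a single outlying library was made.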

How the results depend on the processing

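Of 399 alternative values for Sephs2, 337 kept their direction and their side of the threshold, 48 lost the call, 8 gained it and 6 turned direction. The Trsp mRNA change came to -0.40 (adjusted p = 0.521) with pooled wild types, 0.34 (0.226) against the other colony's wild type and -0.34 (0.240) scaled. The Trsp 5' change was called at -0.80 with a pseudocount of 1 (0.0476), with only 2 groups fitted (0.0495) and with precision weights (0.0256). The 5' difference between wild types was called at 0.79 with 2 groups (0.0458) and 0.78 with weights (0.0369). The 5' change over both knockouts was -0.79 scaled (exact permutation, adjusted p = 0.167). The Secisbp2 ratio lost its call with a pseudocount of 0.1 (-1.36, 0.0524), with no filter (-1.29, 0.0549) and with a replicate block (-1.29, 0.0888). Loading per mRNA, never called, turned to 0.05 in Secisbp2 and -0.36 in Trsp against the other colony's wild type, to -0.08 in Trsp with pooled wild types, to -0.09 without Trsp knockout replicate 1, and to 0.00440 over both knockouts when scaled (exact permutation). The causes were not tested.

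Leaving out each library gave the following ranges. For the mRNA they were -2.14 to -1.36 (Secisbp2), -1.03 to -0.76 (Trsp) and -1.24 to -0.47 (difference). For the 5' density they were -2.57 to -1.75, -1.13 to -0.47 and -1.77 to -0.95, and 0.61 to 0.96 between wild types. For the 3' density the range between wild types was 0.98 to 1.45. For the ratio they were -1.70 to -0.89 (Secisbp2) and -5.13 to -4.48 (Trsp). For loading they were -0.63 to -0.18 (Secisbp2) and -0.09 to 0.29 (Trsp). Over both knockouts they were -1.52 to -1.13 (mRNA), -1.68 to -1.27 (5'), -4.75 to -4.30 (3') and -3.25 to -2.85 (ratio), where the call was lost without any 1 of the 5 Trsp libraries, since the smallest adjusted p those designs allow is 0.0521 or 0.0694.

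Whether replicate numbers pair the libraries is unsure, and they were not used as pairs: same-numbered footprint and RNA libraries deviated with correlations of 0.24 to 0.45 in the 3 groups of 2 and of -0.42 to -0.08 in the Trsp wild type. The replicate block changed no other call. A block by genotype and number, chosen after seeing the data, was fitted for loading per mRNA only, which had no call to lose and gained none. The 21 and 29 reads behind the UGA in Trsp knockout limit how closely the ratio is known there.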
